A study of Mus musculus with 41 samples.

Results

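The strain difference in the cortex of young adult mice was examined by comparing SAMP8 with SAMR1 at 2.5 months of age. The senescence-accelerated mouse prone 8 (SAMP8) is an inbred line that develops memory deficits early in life, and the senescence-accelerated mouse resistant 1 (SAMR1) is the companion line with normal ageing that served as control. Of the 41 total RNA-seq libraries of the study, 7 were cortex libraries of this age, 3 from SAMP8 and 4 from SAMR1, each from a different male mouse. The mice had been bought naive to drugs and behavioural tests, and no group of this age carried a treatment. Per the paper, mice of each age went through behavioural tests and brain imaging under isoflurane before tissue was taken. They were then perfused under ketamine and medetomidine. The cortex of 1 hemisphere was dissected, and ribosomal RNA was removed before library preparation. The comparison used these 7 libraries and no others. The hippocampus libraries of the same age, again 3 SAMP8 and 4 SAMR1, served as the second region, and 4 of the 10 mice of this age gave both regions. Since each strain is an inbred line kept apart from the other, a difference between the strains can follow from any of the many loci at which they differ, and no single allele is tested. In bulk tissue, fewer cells of a type and less RNA per cell cannot be told apart.

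One library stood apart. SAMP8 replicate 2 held 28861 counts over 5500 genes, 0.936% of the counts of the next smallest SAMP8 library, and 60.4% of the tested genes had no count in it. SAMP8 replicates 1 and 3 held 5311986 and 3082694 counts, and the SAMR1 libraries held 500986 to 22342090. Non-zero counts were mostly even, from 63.2% of genes in the deepest library to 97.2% in SAMP8 replicate 2, a pattern that appears when both mates of a read pair are counted, so that a count of 2 can stand for 1 fragment. Levels are given as normalised CPM, which are counts scaled to a library size of 1000000 after TMM correction. On this scale 1 count was worth 22.4 CPM in SAMP8 replicate 2, 2.09 CPM in SAMR1 replicate 4 and at most 0.342 CPM in the other 5 libraries. The calls, the called genes and the medians of gene lists are therefore given with and without SAMP8 replicate 2. Of the genes described below that were not called with all 7 libraries, Ranbp9, Gm6356, Gm13306 and Gm10131 were called without it and no other was.

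The labels fitted the markers of region and sex. Summed over the 10 cortical layer neuron markers, the cortex libraries reached 991 to 1533 CPM and the hippocampus libraries of this age 864 to 1064 CPM. The 10 hippocampal neuron markers summed to 86.2 to 830 CPM in cortex and to 1005 to 1704 CPM in hippocampus, on the scale of all 14 libraries. Xist, the RNA of the inactive X chromosome, had at most 2 counts in any of the 7 cortex libraries, and Ddx3y, a gene of the Y chromosome, was counted in 6 of 7, SAMP8 replicate 2 being the library without a count.

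Genes were tested with edgeR's quasi-likelihood test, and a gene was called at a Benjamini-Hochberg adjusted p of at most 0.1 and a log2 fold change of at least 1 in either direction. With all 7 libraries, 11 of 13671 tested genes were called (0.0805% of those tested), 7 with higher (0.0512%) and 4 with lower levels in SAMP8 (0.0293%). At an unadjusted p under 0.05 there were 974 genes (7.12%), 371 higher (2.71%) and 603 lower (4.41%). Without SAMP8 replicate 2, 8 of 14658 genes were called (0.0546%), 7 higher (0.0478%) and 1 lower (0.00682%), and 1301 genes (8.88%) had an unadjusted p under 0.05, 679 higher (4.63%) and 622 lower (4.24%). The calls shared 4 genes, which were the pseudogenes Gm6166, Rpl7a-ps7 and Vcp-rs, all higher, and the long non-coding RNA AC153155.1, lower. The other 7 genes called with all libraries kept their sign without SAMP8 replicate 2 and then had adjusted p of at most 0.24 by edgeR. With all libraries the strains did not overlap in 8 of the 11 called genes. Over all tested genes, 1.95% lay wholly higher in SAMP8 and 7.13% wholly lower. Without SAMP8 replicate 2 the strains did not overlap in any of the 11, beside 9.04% of all genes tested without it that lay wholly higher and 8.53% wholly lower. Genes called for a large difference tend to separate, so these counts add no support to the calls. Of the 11 called genes, 3 were protein-coding (Dctn3, Prg4 and Nnat) and 4 were processed pseudogenes.

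**Figure D1:**
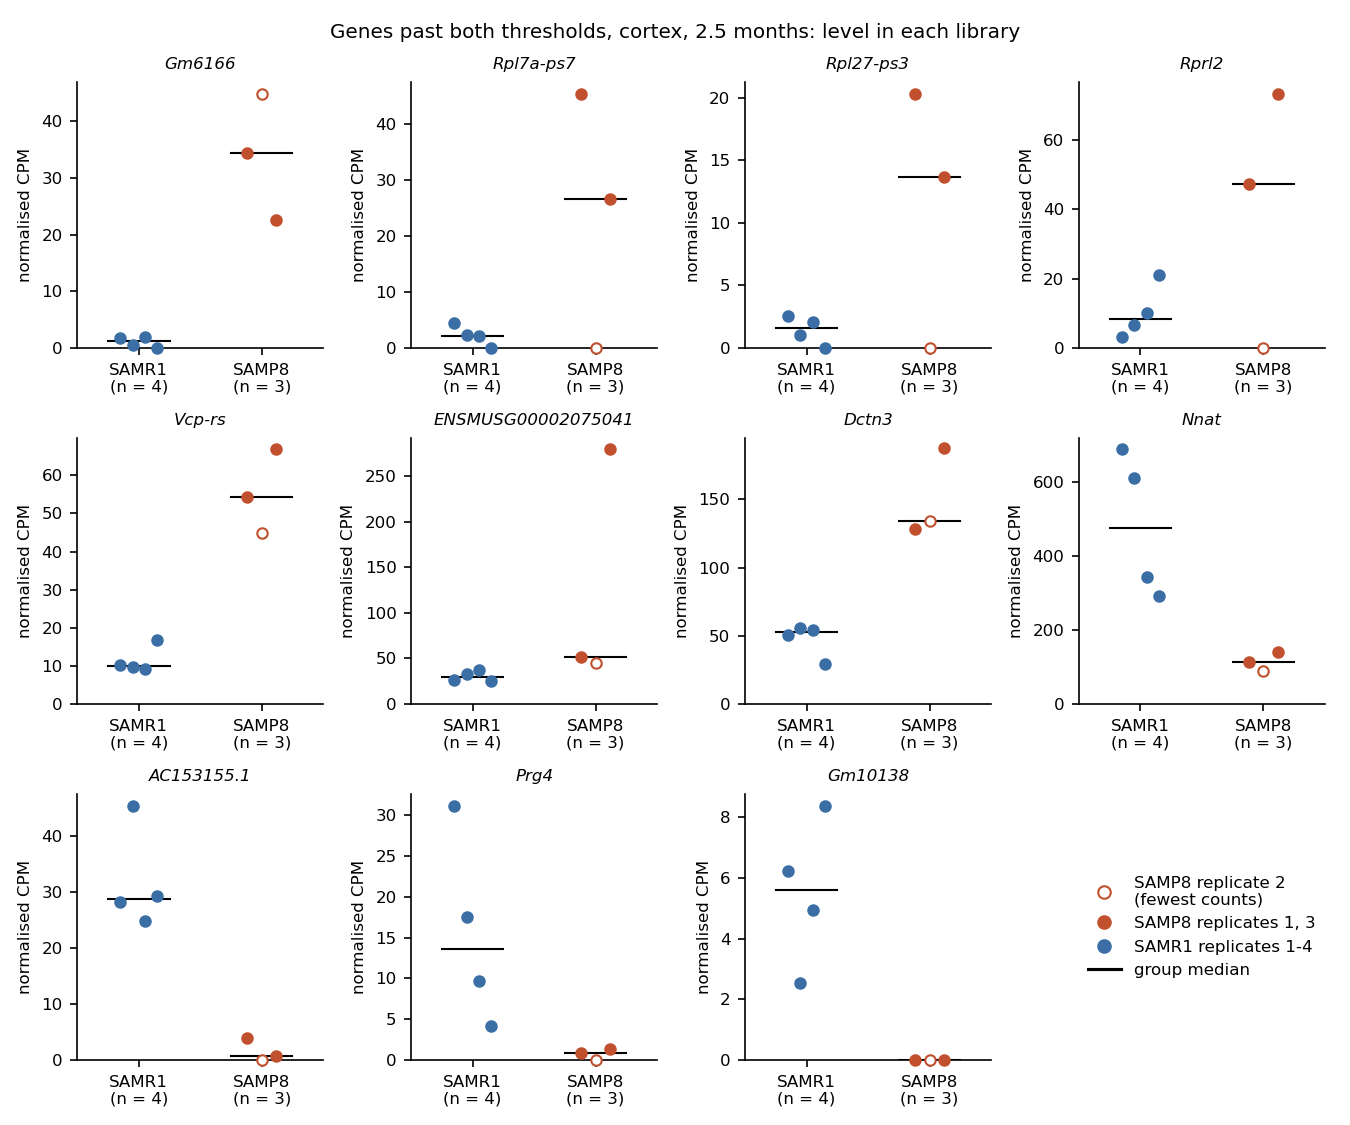
Normalised CPM of the 11 called genes in each cortex library at 2.5 months, 1 panel per gene with its own axis from 0. Points are libraries (SAMR1 blue, SAMP8 red, SAMP8 replicate 2 open) and black lines are group medians. In 8 of the 11 panels the groups do not overlap, and in the other 3, Rpl7a-ps7, Rpl27-ps3 and Rprl2, the open point lies at 0.

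A processed pseudogene is a copy of a messenger RNA that was written back into the genome, and its sequence can be so close to that of its parent gene that a read may be placed on either. The 3 strongest higher calls were of this kind, and the sequence shared with the parent is shown here because the level of the copy depends on it. Vcp-rs (chromosome X, GRCm38 104345829 to 104348234, minus strand) is a processed copy of Vcp (chromosome 4, 42979963 to 43000507, minus strand), which encodes the AAA ATPase that extracts ubiquitinated proteins for degradation. Over the 2421 bases of the Vcp coding sequence, the GENCODE M21 sequence of Vcp-rs matched at 2398 bases, differed at 8 and lacked 15. The stretch of 150 coding bases with the most differences (bases 1390 to 1539 of the Vcp coding sequence) is given 5′ to 3′ in the sense direction, with the 3 differing bases in capitals.
Vcp: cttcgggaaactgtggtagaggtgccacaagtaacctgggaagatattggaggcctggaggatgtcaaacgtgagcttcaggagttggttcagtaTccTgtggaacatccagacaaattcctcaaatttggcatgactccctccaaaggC
Vcp-rs: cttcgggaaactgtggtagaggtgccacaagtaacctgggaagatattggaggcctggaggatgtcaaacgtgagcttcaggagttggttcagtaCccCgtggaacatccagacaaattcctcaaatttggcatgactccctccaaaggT

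Vcp-rs stood at 54.3, 44.8 and 67.0 CPM in SAMP8 replicates 1 to 3 and at 10.1, 9.60, 9.22 and 16.7 CPM in SAMR1 replicates 1 to 4. Every SAMP8 library lay above every SAMR1 library, although the value of SAMP8 replicate 2 rests on 2 counts and that of SAMR1 replicate 4 on 8. The log2 fold change was 2.51 ± 0.38 (SE, adjusted p = 0.00681, edgeR), and 2.55 ± 0.31 without SAMP8 replicate 2 (adjusted p = 0.0202). The parent Vcp stood at 107, 0 and 128 CPM in SAMP8 and at 192, 190, 176 and 180 CPM in SAMR1. Its groups did not overlap, and the value of −0.85 ± 0.38 was not called (unadjusted p = 0.0388, adjusted p = 0.658). Copy and parent together summed to 161 and 195 CPM in SAMP8 replicates 1 and 3 and to 186 to 202 CPM in SAMR1. The copy took 33.7% and 34.4% of this sum in SAMP8 replicates 1 and 3 and 4.82% to 8.51% in SAMR1. Of the 50-base words of Vcp-rs, 83.2% also occur in Vcp transcripts, so how reads divide between both loci depends on few bases, and the part of strain sequence in this division was not tested.

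Gm6166 (chromosome 9, 57483963 to 57484371, plus strand) had the largest log2 fold change among the higher calls with all 7 libraries. Its level was 34.4, 44.8 and 22.6 CPM in SAMP8 and 1.81, 0.539, 1.96 and 0 CPM in SAMR1, with no overlap, the value of SAMP8 replicate 2 again resting on 2 counts. The log2 fold change was 4.48 ± 0.57 (adjusted p = 0.00181, edgeR), and 4.43 ± 0.57 without SAMP8 replicate 2 (adjusted p = 0.0204). Gm6166 passed the filter on low counts only through the SAMP8 libraries, in which it was high, so its p is no independent evidence. Of its 50-base words, 51.1% occur in transcripts of Fabp5, the epidermal type fatty acid binding protein, which carries long-chain fatty acids in brain cells. Fabp5 itself was at 54.3, 0 and 32.8 CPM in SAMP8 and at 122, 77.4, 109 and 58.5 CPM in SAMR1. Its groups did not overlap, its log2 fold change was −1.19 ± 0.40 and it was not called (unadjusted p = 0.00702, adjusted p = 0.417). The copy took 38.8% and 40.7% of the joint level in SAMP8 replicates 1 and 3 and at most 1.76% in SAMR1.

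The remaining pseudogene calls were copies of ribosomal protein genes. Rpl7a-ps7 (chromosome 3, 129461972 to 129462747, plus strand) was at 45.4 and 26.7 CPM in SAMP8 replicates 1 and 3, had no count in replicate 2, and was at 4.41, 2.37, 2.06 and 0 CPM in SAMR1. Its log2 fold change was 3.68 ± 0.52 (adjusted p = 0.00424, edgeR) and 3.81 ± 0.48 without SAMP8 replicate 2 (adjusted p = 0.0204), while the parent Rpl7a, a protein of the large ribosomal subunit, differed by −0.19 (adjusted p = 0.968). Of the 50-base words of Rpl7a-ps7, 88.0% occur in other genes, so its level is uncertain. In hippocampus it had 1.47 ± 0.85 and was not called. Rpl27-ps3 (chromosome 18, 6332632 to 6333042, plus strand) was at 20.3, 0 and 13.7 CPM in SAMP8 and at 2.59, 1.08, 2.11 and 0 CPM in SAMR1. Replicates 1 and 3 of SAMP8 lay above SAMR1, and the estimate was 3.20 ± 0.59 on the log2 scale (adjusted p = 0.0569), and 3.29 ± 0.57 without SAMP8 replicate 2 (adjusted p = 0.112). All of its 50-base words occur in transcripts of Rpl27, so its level is uncertain.

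Processed pseudogenes as a class were also shifted, which was examined after the values were seen. Of 371 tested processed pseudogenes, 329 had a log2 fold change above 0 and 128 were higher at an unadjusted p under 0.05, against 2 that were lower. The median was 0.97, beside −0.04 over all 13671 genes and −0.05 over 12448 protein-coding genes. Within the class 34.5% were higher at that p, against 2.71% of all tested genes. One library carried much of it. Processed pseudogenes took 1.03% of the counts of SAMP8 replicate 1, 0.433% of replicate 2 and 0.569% of replicate 3, and 0.380% to 0.566% in SAMR1, so that only SAMP8 replicate 1 and, by a small margin, replicate 3 lay above the SAMR1 range. Without SAMP8 replicate 1 the median of the class was 0.32, without replicate 2 it was 1.00 and without replicate 3 it was 1.29, over the same genes. In the hippocampus at the same age the median over 615 tested processed pseudogenes was 0.07. Gm6166 and Vcp-rs were higher in SAMP8 there too, with log2 fold changes of 4.54 and 2.24. Among the 245 different parent genes that were tested, the median log2 fold change was 0.03, with 131 above 0 and 114 below. Whether the shift follows from how reads of SAMP8 replicate 1 were placed was not tested.

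**Figure D2:**
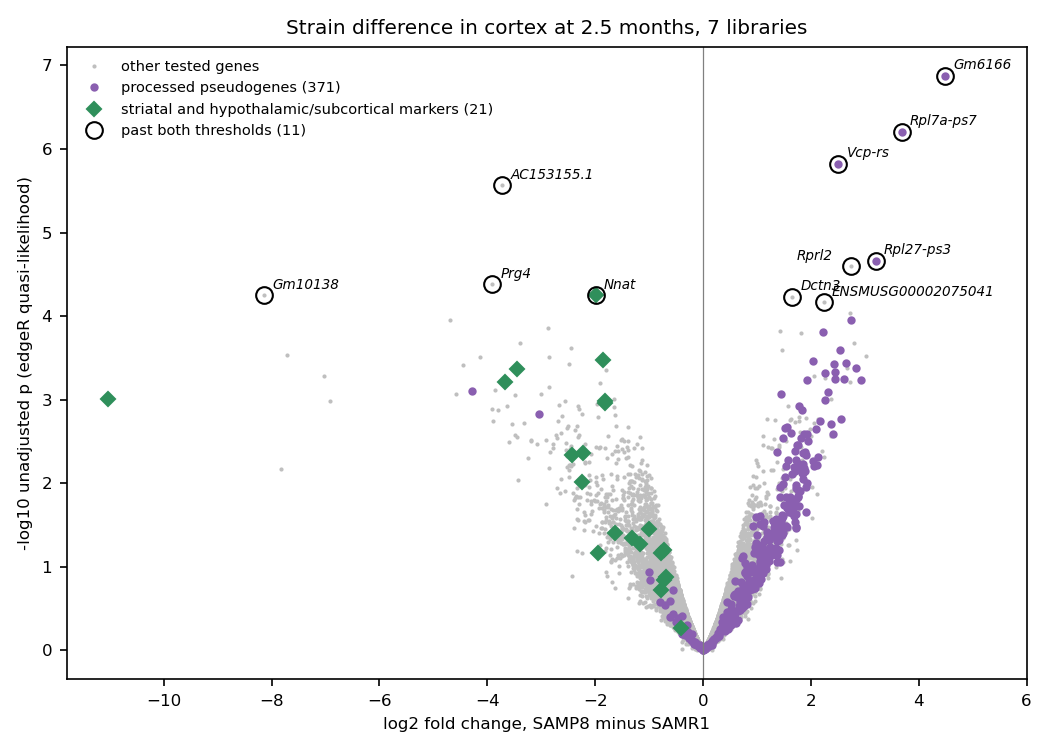
Log2 fold change of SAMP8 against SAMR1 (x axis) and −log10 of the unadjusted edgeR p (y axis) for 13671 genes in the 7 cortex libraries. Purple points are the 371 processed pseudogenes, which lie mostly to the right, green diamonds are the 21 tested striatal and hypothalamic or subcortical markers, all left of 0, and rings mark the 11 called genes. The points of Gm10138 and Avp, far to the left, belong to genes with no count in any SAMP8 library and are no measure of size.

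A further 3 genes were called without SAMP8 replicate 2 but were not tested with it, because a gene with counts in 2 SAMP8 libraries and nearly none in SAMR1 could not pass the filter on low counts when the group size was 3. Gm6356 (chromosome 14, 6965449 to 6973818, minus strand) had 55 and 46 counts in SAMP8 replicates 1 and 3 and 2 counts in all SAMR1 libraries together. Gm13306 (chromosome 4, 42153436 to 42158839, plus strand) had 110 and 18 counts against 5 in SAMR1, and 56.7% of its 50-base words occur in Ccl27a, a skin chemokine gene. Gm10131 (chromosome 8, 34111002 to 34111737, minus strand) had 82 and 24 counts against 32 in SAMR1, and 92.6% of its words occur in Erh. They passed the filter through the SAMP8 libraries in which they were high, so their calls are given as counts, without a p. Trim12a, a member of the antiviral tripartite motif cluster on chromosome 7, was of the same kind, with 11 and 12 counts in SAMP8 replicates 1 and 3 and 1 count in SAMR1. It did not pass the filter of the fits of cortex libraries alone, with or without SAMP8 replicate 2.

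Dctn3 encodes the p24 subunit of dynactin, which joins the motor protein dynein to its cargo. It was the protein-coding gene with the higher call and lies at chromosome 4, 41714798 to 41723170, minus strand. Its level was 128, 134 and 187 CPM in SAMP8 and 50.5, 55.8, 54.5 and 29.3 CPM in SAMR1. No library of one strain overlapped the other, and the log2 fold change was 1.65 ± 0.33 (adjusted p = 0.08, edgeR), against 1.68 ± 0.29 without SAMP8 replicate 2 (adjusted p = 0.112). None of its 50-base words occurs in another gene. Of 26 tested genes of dynein and dynactin, Dctn3 was the single call, the median was −0.02 (0.09 without SAMP8 replicate 2), and besides it 1 gene, Capza1, had an unadjusted p under 0.05, with a log2 fold change of −0.92.

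The neighbourhood of Dctn3 was mixed. Of 22 tested genes of the surrounding list on chromosome 4, 4 were higher at an unadjusted p under 0.05, Dctn3 itself among them, and 1 was lower. Over all tested genes 2.71% were higher and 4.41% lower at that p. The lower one was Vcp, whose level depends on how reads divide between it and Vcp-rs. The median of the list was 0.01 (0.10 without SAMP8 replicate 2). Rpp25l, a gene related to a subunit of RNase P and RNase MRP, starts directly beside Dctn3 (41712033 to 41713534). It was at 13.7, 44.8 and 23.6 CPM in SAMP8 and at 4.15, 6.53, 6.96 and 4.18 CPM in SAMR1. The groups did not overlap, and its log2 fold change was 1.78 ± 0.49 (adjusted p = 0.263). Over all tested genes, 1.95% had every SAMP8 library above every SAMR1 library.

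Ranbp9 encodes a scaffold protein of the CTLH ubiquitin ligase. It was at 228, 179 and 251 CPM in SAMP8 and at 76.2, 81.5, 88.4 and 96.2 CPM in SAMR1, again without overlap. Its log2 fold change of 1.42 ± 0.31 lay just outside the threshold with all libraries (adjusted p = 0.12, edgeR) and inside it without SAMP8 replicate 2 (1.502 ± 0.24, adjusted p = 0.0847). Of 11 tested members of the ligase, Ranbp9 alone had an unadjusted p under 0.05, and the median of the list was 0.06 (0.04 without SAMP8 replicate 2).

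RNase P is the ribozyme that trims the 5′ end of precursor tRNA, and its RNA component is encoded by Rpph1. Rprl2 and Rprl3 are annotated as RNase P RNA-like genes. Their GENCODE M21 sequences are 290 bases each and are shown because reads must be told apart by the positions at which they differ. They match at 267 positions and differ at 23, which are in capitals, 5′ to 3′ (GRCm38, Rprl2 at chr3:22251374-22251663, plus strand, and Rprl3 at chr8:3803069-3803358, minus strand).
Rprl2: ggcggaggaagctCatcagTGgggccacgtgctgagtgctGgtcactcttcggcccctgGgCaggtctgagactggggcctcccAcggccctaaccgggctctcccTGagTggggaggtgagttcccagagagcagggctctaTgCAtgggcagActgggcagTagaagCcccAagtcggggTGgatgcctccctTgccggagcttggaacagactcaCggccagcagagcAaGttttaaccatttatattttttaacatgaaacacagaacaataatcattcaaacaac
Rprl3: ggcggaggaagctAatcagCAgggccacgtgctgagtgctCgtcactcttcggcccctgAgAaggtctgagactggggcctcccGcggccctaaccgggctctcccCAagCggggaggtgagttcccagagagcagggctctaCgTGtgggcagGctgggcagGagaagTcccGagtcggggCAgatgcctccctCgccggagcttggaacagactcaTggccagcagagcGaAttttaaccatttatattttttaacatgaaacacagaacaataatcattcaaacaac

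Because the differences are spread along the genes, 2.90% of the 50-base words of Rprl2 were shared with Rprl3 and none with another gene. Rprl2 was at 47.4, 0 and 73.2 CPM in SAMP8 and at 3.11, 6.64, 10 and 20.9 CPM in SAMR1. SAMP8 replicates 1 and 3 lay above all SAMR1 libraries and replicate 2 had no count. The log2 fold change was 2.74 ± 0.51 (adjusted p = 0.0569, edgeR), and 2.88 ± 0.49 without SAMP8 replicate 2 (adjusted p = 0.112). Rprl3 was more abundant, at 361, 179 and 597 CPM in SAMP8 and 62.2, 87.0, 156 and 163 CPM in SAMR1, and its groups did not overlap. Its log2 fold change of 1.82 ± 0.40 fell outside the threshold (adjusted p = 0.12), as did that of Rpph1 (1.47 ± 0.54, adjusted p = 0.511). The transcript ENSMUSG00002075041, which has no name in GENCODE M21, was called at 51.5, 44.8 and 280 CPM in SAMP8 against 25.9, 33.1, 37.7 and 25.1 CPM in SAMR1 (log2 fold change 2.24 ± 0.45, adjusted p = 0.0852, and 2.38 ± 0.48 without SAMP8 replicate 2, adjusted p = 0.199). SAMP8 replicate 3 held the highest value of each of these RNAs, and without it the log2 fold change of ENSMUSG00002075041 was 0.69.

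Among the lower calls, AC153155.1, a long intergenic RNA (chromosome 18, 61484766 to 61489220, plus strand), was low in SAMP8. It was at 3.88, 0 and 0.684 CPM in SAMP8 and at 28.3, 45.3, 24.9 and 29.3 CPM in SAMR1. The groups were far apart, and the log2 fold change was −3.73 ± 0.59 (adjusted p = 0.00933, edgeR), and −3.69 ± 0.58 without SAMP8 replicate 2 (adjusted p = 0.0847). Gm10138, an antisense transcript (chromosome 1, 151339604 to 151345231, minus strand), had no count in any SAMP8 library and 24, 47, 101 and 4 counts in SAMR1. Against a floor of 6 counts over the SAMP8 group, taken as 3 read pairs, its level was at least 4.99-fold lower in SAMP8 (adjusted p = 0.08, and 0.24 without SAMP8 replicate 2). Prg4 encodes proteoglycan 4, the lubricating protein of joints, and was low in all libraries. It was at 0.912, 0 and 1.37 CPM in SAMP8 and at 31.1, 17.5, 9.71 and 4.18 CPM in SAMR1, without overlap, and its log2 fold change was −3.92 ± 0.76 (adjusted p = 0.08, and 0.199 without SAMP8 replicate 2). AC153155.1, Prg4 and Gm10138 passed the filter on low counts only through SAMR1, in which they were higher, so their p is no independent evidence.

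The remaining lower call was Nnat. It encodes neuronatin, a small imprinted membrane protein of the endoplasmic reticulum that is prominent in the developing brain and the hypothalamus, and lies at chromosome 2, 157560078 to 157562522, plus strand. Its level was 114, 89.6 and 142 CPM in SAMP8 and 690, 610, 344 and 293 CPM in SAMR1. Every SAMP8 library lay below every SAMR1 library, and the SAMR1 libraries themselves spread widely, with a mean of 484 ± 195 CPM (SD, n = 4) against 115 ± 26.0 (n = 3). The log2 fold change was −1.99 ± 0.40 (adjusted p = 0.08, edgeR), and −1.92 ± 0.40 without SAMP8 replicate 2 (adjusted p = 0.227).

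Nnat moved together with a group of genes that are more abundant below the cortex. Of 14 markers of hypothalamic and subcortical neurons, 11 were tested, all 11 had a log2 fold change below 0 and 6 were lower at an unadjusted p under 0.05, while Nnat alone was called. The list was drawn up with earlier results known and holds Nnat, Hap1 and Peg10, which the study lists for this comparison, so these signs are in part fixed by that choice and are no independent evidence. Without these 3, all of the other 8 were below 0, 3 at an unadjusted p under 0.05, with a median of −0.90. These 8 come from the same list and include Avp, which had no count in SAMP8, so they are no independent evidence either. Over all tested genes 53.8% were below 0 and 4.41% were lower at that p. The median of the list was −1.82, and it was the same with Avp set to its bound, beside −0.04 over all genes. The summed level of the list was 942, 403 and 905 CPM in SAMP8 and 3273, 2523, 1334 and 1156 CPM in SAMR1, without overlap. The median was −1.72 without SAMP8 replicate 2, −0.63 without SAMR1 replicate 1 and −0.96 without SAMR1 replicate 2, the SAMR1 libraries with the most of these RNAs, and −0.82 by limma.

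Hap1, which encodes huntingtin-associated protein 1, was at 116, 44.8 and 82.1 CPM in SAMP8 and at 537, 407, 185 and 197 CPM in SAMR1. Its groups did not overlap, and its log2 fold change was −1.85 ± 0.43 (adjusted p = 0.157, edgeR). Peg10, an imprinted gene derived from a retrotransposon, was at 38.1, 0 and 39.0 CPM in SAMP8 and at 222, 150, 82.4 and 46.0 CPM in SAMR1 (log2 fold change −1.82 ± 0.48, adjusted p = 0.225). Without SAMP8 replicate 2 the log2 fold changes were −1.74 for Hap1 (adjusted p = 0.376) and −1.72 for Peg10 (adjusted p = 0.408). For both genes SAMR1 replicate 1 was highest and replicate 2 next. Avp, the gene of the hypothalamic hormone vasopressin, showed the spread inside SAMR1 most plainly. It had no count in SAMP8 and 258, 1192, 0 and 2 counts in SAMR1, at least 41.1-fold lower in SAMP8 than in SAMR1 pooled, while SAMR1 replicate 3, the deepest library, had none. Its adjusted p was 0.217, and it passed the filter on low counts only through SAMR1. Baiap3, which acts in dense-core vesicle release, was at 0.912, 0 and 8.89 CPM in SAMP8. In SAMR1 it was at 74.9, 83.0, 8.29 and 25.1 CPM, so that SAMP8 replicate 3 lay above SAMR1 replicate 3 (adjusted p = 0.163, edgeR). Like Avp, it passed the filter only through SAMR1.

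Markers of striatal neurons behaved likewise, with overlap. All 10 were tested, all 10 had a log2 fold change below 0, and 7 were lower at an unadjusted p under 0.05, but none was called and the median was −1.72 (−1.70 without SAMP8 replicate 2). The summed level was 272, 134 and 1124 CPM in SAMP8 and 3440, 1708, 2223 and 347 CPM in SAMR1, so SAMR1 replicate 4 lay within the SAMP8 range. Ppp1r1b, the dopamine-regulated phosphatase inhibitor DARPP-32 of medium spiny neurons, was at 96.4, 89.6 and 193 CPM in SAMP8 and at 750, 423, 596 and 138 CPM in SAMR1 (log2 fold change −1.82 ± 0.48, adjusted p = 0.217). Penk, the precursor of the enkephalins, was at 63.8, 0 and 234 CPM in SAMP8 and at 1198, 525, 569 and 54.4 CPM in SAMR1 (−2.23 ± 0.70, adjusted p = 0.333). Adora2a, the adenosine receptor of indirect pathway neurons, was at 0.912, 0 and 21.5 CPM against 86.6, 55.3, 66.4 and 4.18 CPM (−2.44 ± 0.77, adjusted p = 0.348). Without SAMP8 replicate 2 these were −1.74, −2.01 and −2.42, with adjusted p of 0.453, 0.547 and 0.531 by edgeR. Adora2a passed the filter on low counts only through SAMR1, so its p is no independent evidence. The median of the striatal list was −1.06 without SAMP8 replicate 1 and −3.40 without SAMP8 replicate 3. In hippocampus libraries of this age the striatal list summed to 225 to 569 CPM, and in cortex libraries to 129 to 3387 CPM, on the scale of all 14.

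**Figure D3:**
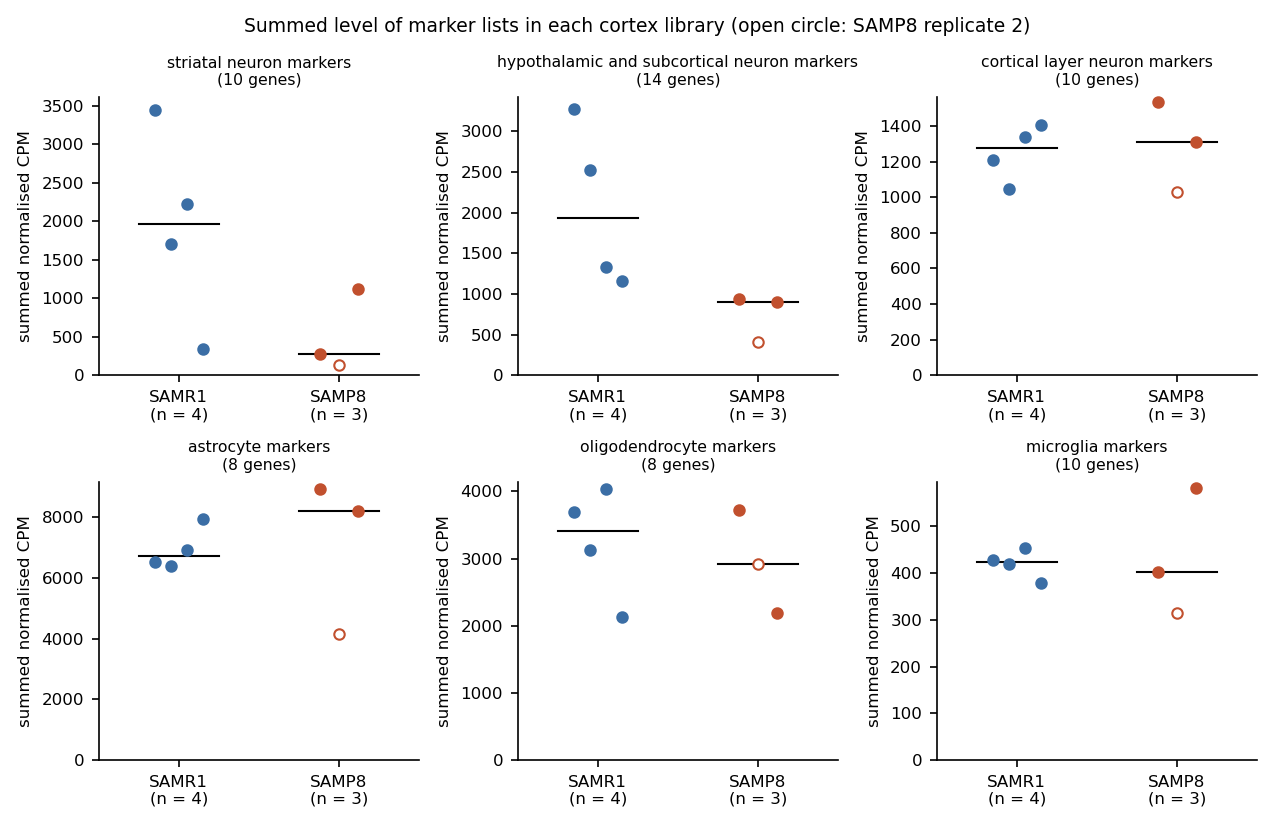
Summed normalised CPM of 6 marker lists in each cortex library, with axes from 0, points for libraries (SAMR1 blue, SAMP8 red, SAMP8 replicate 2 open) and black lines for group medians. The hypothalamic and subcortical sums do not overlap (403 to 942 CPM in SAMP8, 1156 to 3273 CPM in SAMR1), the striatal sums overlap through SAMR1 replicate 4 at 347 CPM, and the cortical layer, astrocyte, oligodendrocyte and microglia sums overlap.

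In other lists of cells outside the cortical sheet, most tested markers were below 0, while the summed levels differed from list to list. The 8 leptomeningeal fibroblast markers had a median of −0.86 with all 8 below 0 and 2 lower at an unadjusted p under 0.05, and the 8 thalamic markers a median of −0.85 with 6 below 0. Both medians were −0.81 without SAMP8 replicate 2. Of 9 ependymal markers 4 were tested, all below 0, and of 10 choroid plexus markers 5 were tested, 4 of them below 0. Of these 5, 1 was higher and 1 lower at an unadjusted p under 0.05. Choroid plexus markers summed to 313, 269 and 393 CPM in SAMP8 and to 226 to 281 CPM in SAMR1. The leptomeningeal and thalamic sums overlapped, and the ependymal sums, at most 17.4 CPM in SAMP8 and at least 18.4 CPM in SAMR1, did not. Foxj1, the master regulator of motile cilia, was at 0.912, 0 and 0.684 CPM in SAMP8 and at 4.15, 10.1, 4.41 and 0 CPM in SAMR1 (log2 fold change −2.78 ± 0.84, adjusted p = 0.319). It too passed the filter on low counts only through SAMR1. The part that dissection, or the number of cells of these kinds in each piece, has in the lower calls, Nnat included, was not tested.

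No marker of the neurons and glia of the cortex was called. Among glia, the medians were 0.01 for 8 astrocyte markers, 0.06 for 10 microglia markers and 0.01 for 8 oligodendrocyte markers (0.17, 0.12 and 0.07 without SAMP8 replicate 2), and no member of these lists had an unadjusted p under 0.05. Gfap, the intermediate filament of astrocytes, was at 398, 224 and 316 CPM in SAMP8 and at 315, 551, 233 and 243 CPM in SAMR1 (−0.04 ± 0.36). Aif1, the microglial protein IBA1, was at 17.1, 0 and 11.6 CPM against 15.8, 12.1, 14.2 and 8.36 CPM (0.07 ± 0.45). The sign of the Gfap, Aif1 and Rbfox3 values changed with the processing. Among neurons, 10 cortical layer markers had a median of 0.24 with 6 above 0, and 6 excitatory neuron markers one of 0.36 with 4 above 0. These medians were 0.23 and 0.55 without SAMP8 replicate 2, and −0.42 and −0.16 without SAMP8 replicate 1. Lamp5, a membrane protein of upper layer neurons and some interneurons, was at 281, 89.6 and 282 CPM in SAMP8 and at 90.0, 77.3, 161 and 155 CPM in SAMR1 (1.03 ± 0.37, adjusted p = 0.5). Bcl11b, a transcription factor of deep layer neurons that striatal neurons also express, was at 125, 89.6 and 120 CPM in SAMP8 and 174 to 258 CPM in SAMR1 (−0.91 ± 0.33, adjusted p = 0.511). The 9 interneuron markers had a median of −0.50 (−0.21 without SAMP8 replicate 2), with 5 below 0, 2 lower and 1 higher at an unadjusted p under 0.05. Without SAMP8 replicate 2, by contrast, 1 was lower and 3 were higher at that p. The one higher with all 7 libraries, Vip, a peptide of a class of interneurons, was at 91.2, 0 and 109 CPM against 8.81, 15.4, 30 and 66.9 CPM (1.79 ± 0.52, adjusted p = 0.302). Of the lower ones with all 7 libraries, Slc32a1, the vesicular GABA transporter, was at 41.9, 0 and 71.8 CPM against 103, 198, 95.3 and 50.2 CPM (−1.13 ± 0.45, adjusted p = 0.575), and Sst, the somatostatin gene, at 66.1, 44.8 and 25.3 CPM against 247, 28.5, 211 and 12.5 CPM (−1.49 ± 0.70, adjusted p = 0.685).

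**Figure D4:**
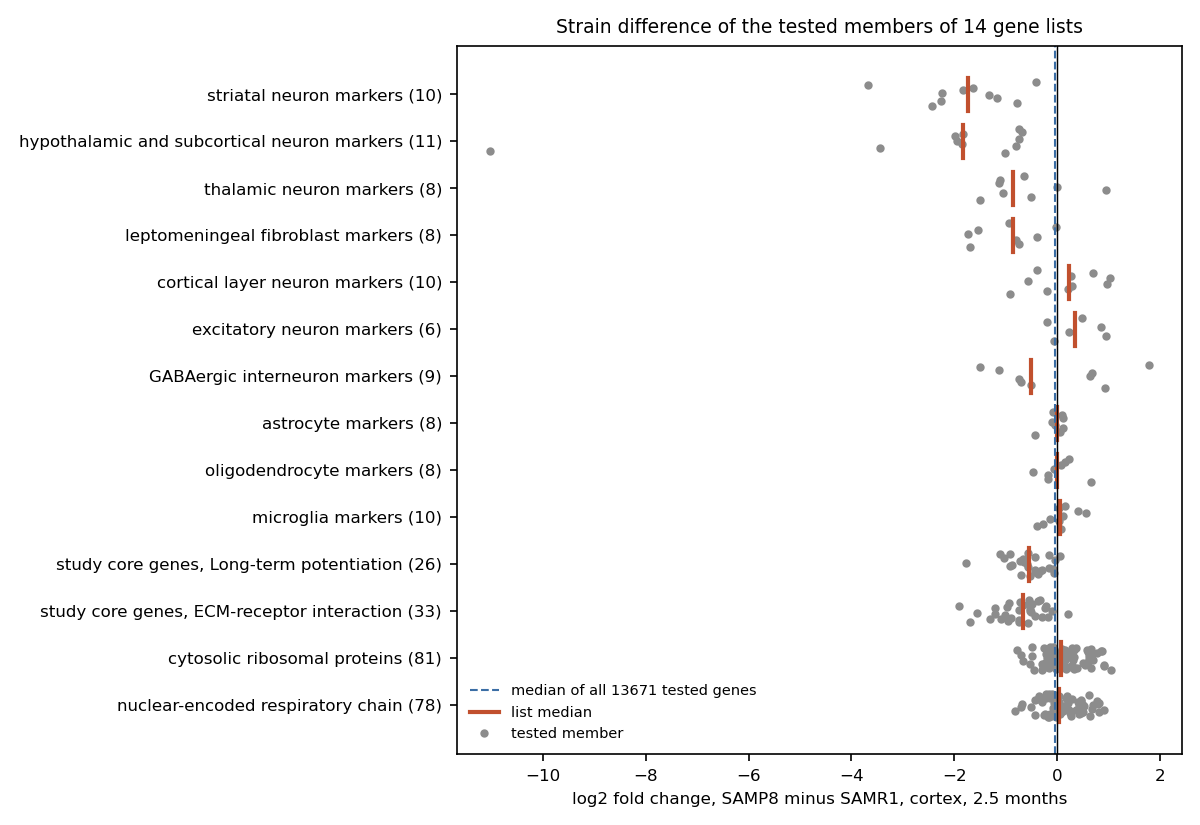
Log2 fold change of SAMP8 against SAMR1 in cortex (x axis) for the tested members of 14 gene lists (rows, number of tested members in brackets). Grey points are genes, red bars list medians, and the dashed line is the median of all 13671 tested genes, −0.04. The striatal and the hypothalamic and subcortical lists lie wholly below 0, with medians of −1.72 and −1.82 (the point farthest left is Avp, without counts in SAMP8), and the glial lists lie around 0.

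The pathways that the study had singled out were described through the core genes of its own enrichment analyses, which were chosen on samples that include these and so are not independent evidence of direction. None of these genes was called. Over all tested genes, 53.8% were below 0 and 46.2% above 0, and at an unadjusted edgeR p under 0.05 4.41% were lower and 2.71% higher. For long-term potentiation, the lasting strengthening of synapses, 25 of 26 tested genes were below 0, 6 of them at an unadjusted p under 0.05, and the median was −0.55. For extracellular matrix and receptor interaction, 32 of 33 were below 0 with a median of −0.65 and 6 genes at that p. Of the 17 tested genes of the basal cell carcinoma list, which holds Wnt and hedgehog signalling genes, all 17 were below 0 with a median of −0.66. The cocaine addiction list, which shares Ppp1r1b with the striatal markers, had 20 of 22 tested genes below 0, 6 of them at an unadjusted p under 0.05, and a median of −0.49. The steroid hormone biosynthesis list went the other way, with 4 of its 32 genes tested, all 4 above 0, 1 of them at that p, and a median of 0.61. Adherens junction (26 of 27 below 0, median −0.43) and antigen processing genes (4 of 4 tested below 0, median −0.73) were the remaining lists. Without SAMP8 replicate 2 the medians were −0.42, −0.57, −0.76, −0.64, 0.73, −0.42 and −0.56 in the order given. Ppp1r1a, the inhibitor 1 of protein phosphatase 1 and a member of the potentiation list, was at 73.6, 44.8 and 30.8 CPM in SAMP8 and at 128, 87.9, 101 and 109 CPM in SAMR1, without overlap (−1.03 ± 0.37, adjusted p = 0.502). Of the lists of pathways that were not taken from the study, the medians were −0.19 for 22 glutamate receptors, −0.32 for 24 synaptic vesicle and active zone genes, 0.20 for 18 GABA receptors and transporters, 0.07 for 81 cytosolic ribosomal proteins, 0.04 for 78 nuclear-encoded respiratory chain genes and 0.20 for 30 immediate early genes. Without SAMP8 replicate 2 these were −0.14, −0.17, 0.30, 0.10, 0.12 and 0.29.

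Within the lists of GABA and complement genes, Slc6a11 and C4b had separate groups without being called. Slc6a11, the GABA transporter GAT-3 of astrocytes, was at 101, 44.8 and 98.5 CPM in SAMP8 and at 239, 559, 179 and 188 CPM in SAMR1 (−1.66 ± 0.43, adjusted p = 0.217). C4b, a complement component, was at 6.16, 0 and 15 CPM in SAMP8 and at 20.9 to 63.2 CPM in SAMR1 (−1.96 ± 0.52, adjusted p = 0.227). Over all tested genes, 7.13% had every SAMP8 library below every SAMR1 library, a share that the empty values of SAMP8 replicate 2 enter.

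Whether the strain difference was particular to the cortex was tested as the interaction of strain and region over the 14 libraries of this age. By edgeR 0 of 15190 genes (0%) had an adjusted p of at most 0.1, the lowest being 1.00, and 642 (4.23%) had an unadjusted p under 0.05. DESeq2 and limma also gave 0 genes. In the same model 21 genes (0.138%) were called between the strains in the hippocampus, 14 higher (0.0922%) and 7 lower (0.0461%). Of these, 4 were also called in cortex (Gm6166, Vcp-rs, Dctn3 and AC153155.1), which is 36.4% of the cortex calls and 19.05% of the hippocampus calls. These cortex calls came from the fit of the 7 cortex libraries alone. In the model of all 14 libraries 86 genes were called in cortex (0.566%), of which 15 were also called in hippocampus, 17.4% of the cortex calls and 71.4% of the hippocampus calls, all 15 with the same sign. Trim12a, Gm6356 and Gm13306 were among these 15, which is no independent evidence where SAMR1 held nearly no counts. Part of the mice gave both regions. Of the 11 genes called in cortex, 10 had the same sign in the hippocampus.

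For Gm6166, Vcp-rs and Dctn3 the estimates in the regions were close. Gm6166 had a log2 fold change of 4.54 ± 0.42 in hippocampus, Vcp-rs 2.24 ± 0.27 and Dctn3 1.59 ± 0.26, with adjusted p of 8.32e-06, 0.000247 and 0.00776 by edgeR. AC153155.1 reached −5.17 ± 0.52 there (adjusted p = 1.98e-05). The differences of Nnat, a lower call, and of Hap1, which was not called, were smaller in hippocampus, at −0.66 ± 0.30 and −0.40 ± 0.35. Their interaction estimates were −1.32 ± 0.45 (unadjusted p = 0.00793) and −1.42 ± 0.52 (unadjusted p = 0.0121), neither of which passed the adjustment. Prg4 had 0.12 ± 0.73 in hippocampus (interaction −4.02 ± 1.10, unadjusted p = 0.00156, adjusted p = 1.00). In hippocampus, 2 of 10 striatal markers were below 0 and the list median was 0.38, and 10 of 11 hypothalamic and subcortical markers were below 0 with a median of −0.38.

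**Figure D5:**
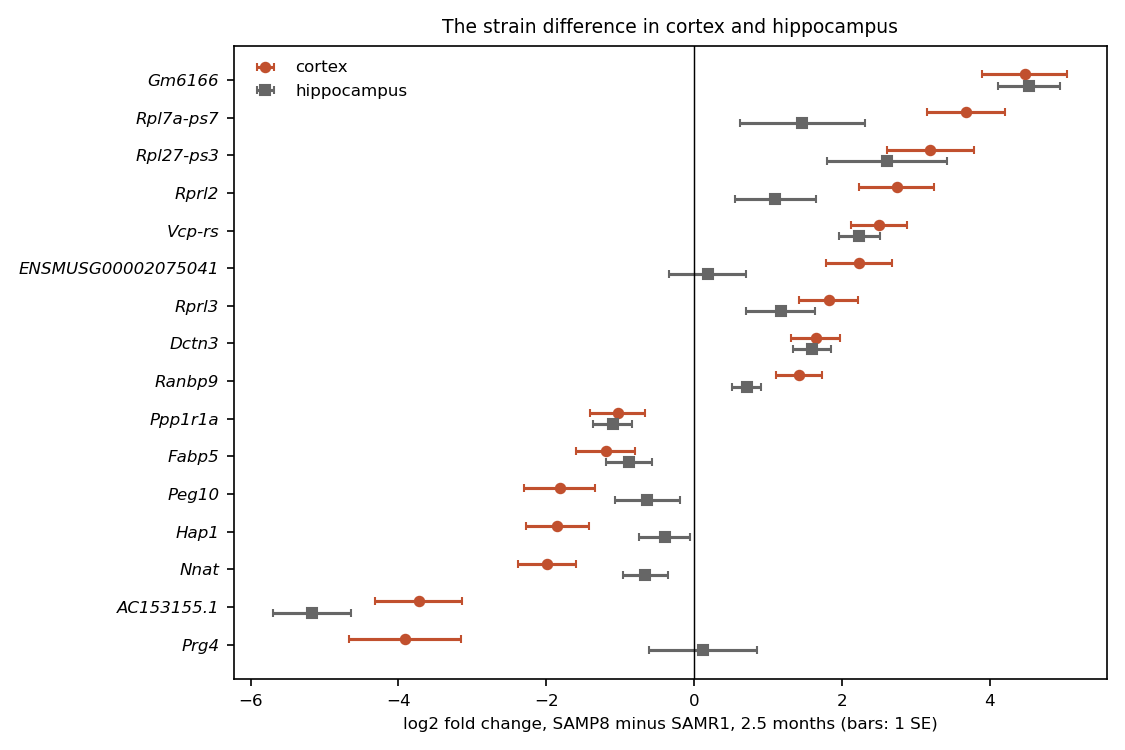
Log2 fold change of SAMP8 against SAMR1 at 2.5 months with 1 SE, in cortex (red circles, 7 libraries) and in hippocampus (grey squares, 3 SAMP8 and 4 SAMR1 libraries), for 16 genes. Gm6166, Vcp-rs, Dctn3, Ppp1r1a and Fabp5 lie close in both regions, Nnat, Hap1 and Prg4 lie further from 0 in cortex, and no interaction passed the adjustment.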

How the data were processed

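Total RNA-seq libraries (CORALL kit, ribosomal RNA depleted, unique molecular identifiers) were made from male mice, 1 per cortex library. Per the study's methods, the authors removed the identifiers, trimmed with cutadapt, aligned with STAR to GRCm38 and counted reads per gene with featureCounts, forward strand; per the file headers, duplicate reads had been removed by identifier before counting. The annotation release they name (M29) was issued for a later assembly than GRCm38. The deposited values are raw counts per gene without duplicates. Of 55359 identifiers, 52083 (94.1%) matched GENCODE M21 (GRCm38), which gave names, positions and sequences.

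Counts of the 7 libraries were filtered with filterByExpr, scaled by TMM and tested with edgeR 4.0.16 (quasi-likelihood, R 4.3.3), with strain as the only term. A standard error is the log2 fold change divided by the square root of the F statistic. The interaction used 4 groups and 14 libraries. Alternatives were DESeq2 1.42.0, limma 3.58.1, other scalings, filters and thresholds, a replicate block and leaving out libraries. The thresholds follow the study's methods, which fitted DESeq2 with region as covariate, a model with 1 strain difference for both regions that was not fitted here. Members and gene lists were chosen with earlier results of these data known.

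Named genes were the 8 genes the study lists for this comparison, up to 12 called genes per direction with at least 1 CPM and a gene symbol, up to 4 called clone or model names per direction, up to 3 members of each of 52 lists by p (the text gives those a result turns on), Aif1, Gfap, Rbfox3, Xist and Ddx3y, and any called genes in clusters, of which there were 0. Genes named outside this rule (Gm6356, Gm13306, Gm10131, Trim12a, Avp, Adora2a, Rpl7a, Rpl27) were chosen after their values were seen. Shared sequence was measured as the share of 50-base words found in GENCODE M21 transcripts of other genes. Between libraries of a strain the chi-square per degree of freedom was at least 2.32 in 9 pairs, and at least 4.26 in pairs without SAMP8 replicate 2. Counting both mates of a read pair raises the value given by sampling alone. Agreement within sampling noise therefore cannot be judged for pairs with SAMP8 replicate 2. A few genes covered by the naming rule are left out of the text.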

Additional observations from a re-analysis of the deposited data

Results flagged for a closer look

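In 38 sets of 4 SAMR1 values (genes named in the comparison and marker sums), 1 library lay apart from the other 3 in 2 sets, where chance gives about 1 in 20. Vcp-rs was at 16.7 CPM in SAMR1 replicate 4, on 8 counts, and at 9.22 to 10.1 CPM in the others. Rbfox3, the neuronal nuclear protein NeuN, was at 204 CPM in SAMR1 replicate 2 and at 298 to 314 CPM in the others. No gene passed the adjustment in the test of strain by region.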

How the results depend on the processing

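The number of called genes depended on the processing. It was 11 in the comparison as reported and 14 by DESeq2, 11 with DESeq2's size factor scaling in edgeR and 14 with a minimum mean of 20 counts. It was 4 at an adjusted p of at most 0.05 with no fold threshold, 4 by limma with quality weights, 23 with 12 groups of all ages in 1 model, 86 with the 4 groups of this age in 1 model and 346 with no filter on low counts. Leaving out each library in turn gave 5 to 163 genes, the highest without SAMP8 replicate 3, with 70 without SAMP8 replicate 1 or SAMR1 replicate 4, 35 without SAMR1 replicate 3, 17 without SAMR1 replicate 1 and 5 without SAMR1 replicate 2. Chosen after seeing the data, leaving out both libraries under 1000000 counts gave 5 genes, and halving the counts gave 41. The cause was not tested. Same-numbered libraries are different mice and their deviations correlated at 0.039 to 0.086, so the numbers were not taken as pairs, and the replicate block gave 60 genes. The interaction gave 0 genes except 81 with no filter and up to 2 when 1 library was left out (2 without SAMR1 cortex replicate 3), with the replicate block also 0. Gm6166 and Vcp-rs were called in all 17 alternatives, Rpl7a-ps7 in 14 of the 15 that tested it, Dctn3 in 10 of 17 and Nnat in 11 of 17. The sign changed for Aif1 (−0.041 by limma, −0.17 with the block, −0.28 to 0.27 with 1 library left out), Gfap (0.077 by limma, 0.093 without SAMP8 replicate 2, −0.24 to 0.31 with 1 library left out) and Rbfox3 (0.017 without the libraries under 1000000 counts, −1.44 to 0.17 with 1 library left out). The median of the hypothalamic and subcortical list was −0.93 with halved counts. With SAMP8 replicate 2 at a median of 0 counts per tested gene, differences in genes of low level were not detectable from that library.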
